A study of Mus musculus with 12 samples.

Results

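These results concern 9 mouse livers in which the inducible AMPK of the study was not switched on, and how far they differed from one another on the same fatty diet. They are the 9 of 12 libraries whose labels give no AMPK activation, and each was set against the mean of its own group, so that what remains is the spread among livers of 1 genotype and 1 diet. The strain was C57Bl/6J throughout, the diet gave 45% of its calories as fat over 8 weeks, and all 12 carried the alleles ColA-AMPKa1(312)/AMPKa1(312) and R26-rtTA/rtTA, an AMPK alpha 1 transgene and a doxycycline-responsive transactivator, so no wild-type liver is among them. The 3 iAMPK_HFD+doxy livers had these alleles and doxycycline in the diet, the 3 L-iAMPK_HFD livers had in addition Albumin-Cre, a recombinase driven by the albumin promoter of hepatocytes, with no doxycycline, and the 3 iAMPK_HFD livers had neither. The other 3 libraries, L-iAMPK_HFD+doxy, had both Albumin-Cre and doxycycline and are labelled as having active AMPK. The labels name no age, and nothing in them says whether livers of 1 number or group shared a cage, litter or day. The p-values below therefore measure the spread between these libraries, part of which may be technical.

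A liver that stores fat coats its triglyceride droplets with proteins such as the perilipins and CIDE proteins, while the transcription factor SREBP-2 adjusts cholesterol synthesis to the sterol content of the cell. Fatty livers may also show inflammation, seen as acute-phase proteins made by hepatocytes and as macrophage genes, and scarring, seen as collagens and other matrix proteins made largely by hepatic stellate cells. Mice of 1 inbred strain on 1 fatty diet are known to differ in how much fat they gain.

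The values are FPKM, read counts scaled to transcript length and library size, and the spread of a gene is its residual SD: the SD of log2(FPKM + 0.5) after removing the 3 group means, with 6 degrees of freedom. In 8 of the 9 livers 13569437 to 19078035 reads lay in genes, the fewest in iAMPK_HFD+doxy 1. The hepatocyte genes Alb (27364 to 38784 FPKM) and Ttr (3863 to 5210 FPKM) were high in all 9, and Prkaa1, which encodes AMPK alpha 1, lay between 2.62 and 4.12 FPKM in the 9, against 946.5 to 1265 FPKM in the 3 L-iAMPK_HFD+doxy livers. Of genes with a mean of at least 1 FPKM over the 9 livers, 10983 were kept. In bulk tissue, fewer cells of a type and less RNA per cell cannot be told apart.

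Within groups, most genes differed little between livers and a small set differed widely. The median residual SD was 0.14 log2 units, with quartiles of 0.10 and 0.21, and 76 genes (0.692%) reached 1 log2 unit. Cyp2c54, a cytochrome P450 gene, lay just inside that threshold (1.03) and the microRNA gene Mir6935 just outside it (0.99). Of the 76 genes, 45 were protein-coding, and in 37 of those the SD that read counting alone gives was a small part of the residual SD (their ratio under 1 to 3). Hsd3b5, Cebpe, Mup14 and Obp2a, described below, were not among the 37, with counting SDs of 0.77, 0.73, 0.64 and 0.59. The residual SD chose the genes named next, so it is given as a description with no test.

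Of the 20 named genes with the largest spread, 11 are on a list of genes that differ between male and female mouse livers or respond to growth hormone, a list chosen with these results known. Of the 10983 genes kept, 28 are on it (of 38 listed), with a median residual SD of 1.03. All 9 livers had the male pattern of sex-chromosome genes, with Xist between 0.007 and 0.058 FPKM and the Y-linked Ddx3y between 11.1 and 13.1 FPKM. Hsd3b5, a steroid-metabolising enzyme typical of male mouse liver, led with a residual SD of 2.29. It had 43.5, 0.485 and 0.26 FPKM in iAMPK_HFD+doxy livers 1, 2 and 3, 0, 0 and 0.21 FPKM in L-iAMPK_HFD livers 1, 2 and 3, and 78.9, 9.93 and 3.33 FPKM in iAMPK_HFD livers 1, 2 and 3. In the iAMPK_HFD+doxy and iAMPK_HFD groups liver 1 stood highest, and the L-iAMPK_HFD livers lay at or near 0, below the other 6. Livers 1, 2 and 3 of each group are given in that order in all that follows.

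The major urinary proteins, small pheromone carriers that the liver secretes in bulk, supplied 6 of the 20 genes. Mup7 had 425.6, 20.9 and 52.4 FPKM in iAMPK_HFD+doxy livers, 0.392, 0.215 and 2.81 FPKM in L-iAMPK_HFD livers, and 1037, 46.4 and 99.9 FPKM in iAMPK_HFD livers. Mup11 had 189, 8.80 and 19.5 FPKM in iAMPK_HFD+doxy livers, 0.591, 0.389 and 5.88 FPKM in L-iAMPK_HFD livers, and 809.6, 65.0 and 57.1 FPKM in iAMPK_HFD livers. For both genes liver 1 was highest in iAMPK_HFD+doxy and iAMPK_HFD and liver 3 was highest in L-iAMPK_HFD, and all 3 L-iAMPK_HFD livers lay below the other 6. Mup6, Mup14, Mup16 and Mup17 had the same livers highest in each group, with residual SDs of 1.36, 1.67, 1.29 and 1.57. The Mup genes are near-identical copies, so their counts may be divided wrongly among them.

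Other genes of the hepatocyte had the same livers highest in each group. Serpina1e, an alpha-1-antitrypsin gene from a family of close copies, had 569.7, 87.2 and 145 FPKM in iAMPK_HFD+doxy livers, 6.39, 11.3 and 32.6 FPKM in L-iAMPK_HFD livers, and 1549, 319.9 and 133 FPKM in iAMPK_HFD livers. Slco1a1, a bile acid and organic anion transporter, had 103, 17.9 and 21.4 FPKM in iAMPK_HFD+doxy livers, 2.23, 1.803 and 15.2 FPKM in L-iAMPK_HFD livers, and 137, 68.5 and 41.9 FPKM in iAMPK_HFD livers. In each of these 2 genes the highest livers were again iAMPK_HFD+doxy 1, L-iAMPK_HFD 3 and iAMPK_HFD 1. The selenium-binding protein gene Selenbp2, the fatty acid hydroxylase Cyp4a12b and the serpin pseudogene Serpina4-ps1 had the same 3 livers highest, with residual SDs of 1.67, 1.40 and 1.61. Obp2a, an odorant-binding protein gene, had its highest values in iAMPK_HFD 1 (15.2 FPKM) and iAMPK_HFD 3 (19.2 FPKM) and differed little among iAMPK_HFD+doxy livers (3.32 to 4.10 FPKM).

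A second set was lowest in those livers. Cyp2b9, a P450 gene typical of female mouse liver, had 11.7, 160.0 and 121 FPKM in iAMPK_HFD+doxy livers, 126, 123 and 106 FPKM in L-iAMPK_HFD livers, and 12.8, 73.6 and 149.8 FPKM in iAMPK_HFD livers. Ly6d, a surface protein of the Ly6 family, had 3.23, 35.2 and 44.6 FPKM in iAMPK_HFD+doxy livers, 79.2, 76.3 and 19.2 FPKM in L-iAMPK_HFD livers, and 1.66, 16.1 and 7.85 FPKM in iAMPK_HFD livers. Cidea, a droplet protein that promotes the growth of large lipid droplets, had 0.744, 8.35 and 5.39 FPKM in iAMPK_HFD+doxy livers, 4.85, 6.92 and 3.89 FPKM in L-iAMPK_HFD livers, and 0.699, 11.4 and 0.816 FPKM in iAMPK_HFD livers. In these 3 genes iAMPK_HFD+doxy 1, L-iAMPK_HFD 3 and iAMPK_HFD 1 were the lowest of their groups, and the groups overlapped, except that L-iAMPK_HFD lay above iAMPK_HFD for Ly6d. Cyp2a22, another P450 gene, ran from 34.6 to 42.6 FPKM in L-iAMPK_HFD livers, above the other 6 (0.859 to 18.7 FPKM).

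In 3 further genes single livers stood apart with no shared order. Cebpe, a transcription factor known from granulocyte maturation, had 5.33, 4.64 and 8.93 FPKM in iAMPK_HFD+doxy livers, 0.036, 5.20 and 4.19 FPKM in L-iAMPK_HFD livers, and 0, 6.44 and 9.91 FPKM in iAMPK_HFD livers, so that it was near 0 in 2 livers of different groups. Gdpd3, a lysophospholipase D, had 5.30, 10.99 and 0.246 FPKM in iAMPK_HFD+doxy livers, 0.211, 0.167 and 0.227 FPKM in L-iAMPK_HFD livers, and 9.60, 9.19 and 0.268 FPKM in iAMPK_HFD livers, with no value between 0.268 and 5.30 FPKM. Mug2, a protease inhibitor of the alpha-2-macroglobulin family, had 129.7, 77.1 and 87.2 FPKM in iAMPK_HFD+doxy livers, 3.68, 79.7 and 92.1 FPKM in L-iAMPK_HFD livers, and 120.2, 131 and 139.9 FPKM in iAMPK_HFD livers, so that 1 liver held its whole spread. Without L-iAMPK_HFD 1 its residual SD was 0.26.

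**Figure D1:**
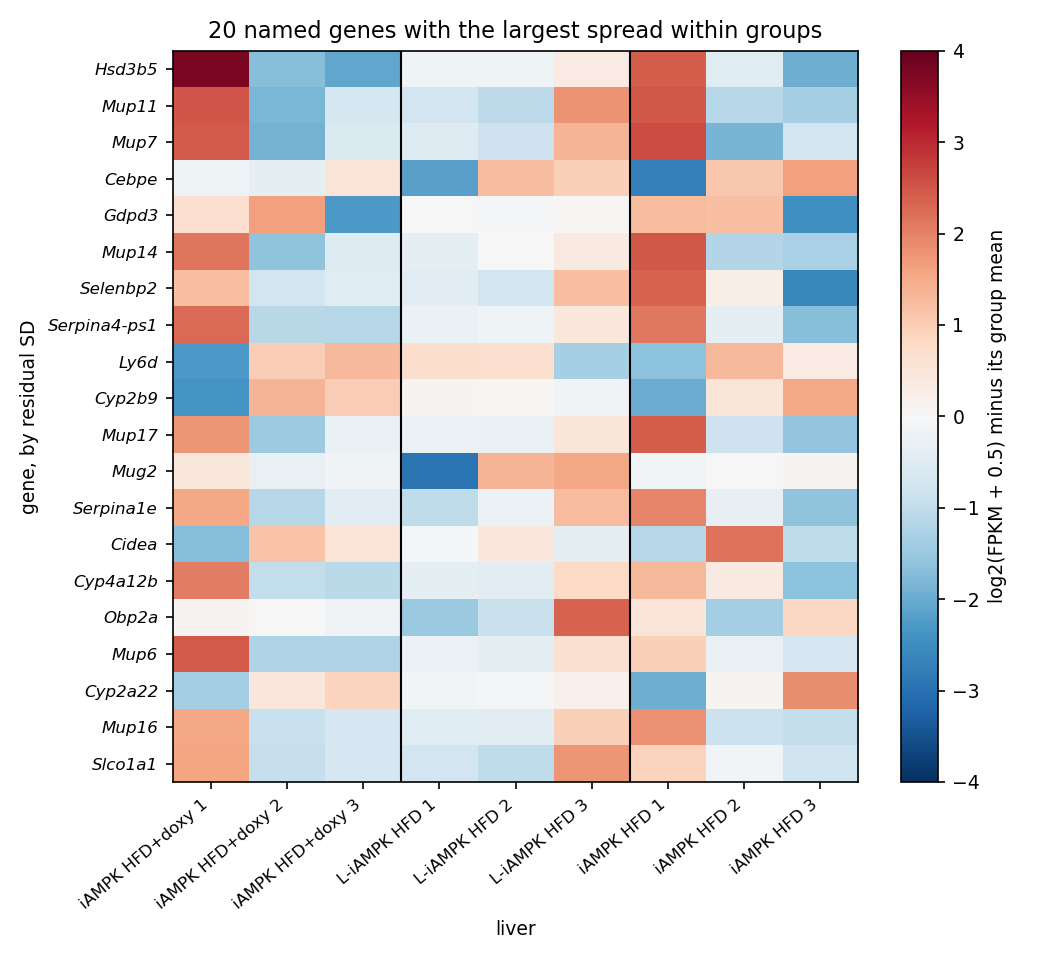
Each row is 1 of the 20 named genes with the largest residual SD and each column 1 of the 9 livers; colour gives log2(FPKM + 0.5) minus the mean of the liver's group, red above and blue below it. The Mup genes, Hsd3b5, Serpina1e and Slco1a1 are red and Ly6d and Cyp2b9 blue in iAMPK_HFD+doxy 1 and iAMPK_HFD 1, and less strongly so in L-iAMPK_HFD 3.

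A principal component analysis of all kept genes, group means removed, placed 43.4% of the residual variance on its first axis, 18.2% on the second and 14.7% on the third. On the first axis iAMPK_HFD+doxy 1 scored -0.59, L-iAMPK_HFD 3 scored -0.44 and iAMPK_HFD 1 scored -0.33, while the remaining 6 livers scored between 0.16 and 0.42. The share on the first axis was 37.7% with no filter on low genes and 39.2% without iAMPK_HFD+doxy 1. As a description over the 9 livers, which share the axis with the genes that built it, Pearson's r with the first axis was 0.96 for Ly6d, -0.93 for Slco1a1 and -0.91 for Mup11, and 0.19 for Cebpe and -0.40 for Gdpd3.

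The macrophage, sterol, lipid droplet, matrix and acute-phase lists all varied more between livers of a group than a typical gene. The median residual SD was 0.44 over the macrophage genes (31 of 38 listed genes kept), 0.37 over the sterol genes (25 of 26), 0.35 over the lipid droplet genes (25 of 27), 0.33 over the matrix genes (40 of 52) and 0.33 over the acute-phase genes (32 of 33), beside 0.14 over all 10983 genes. Wide spread was not particular to these 5 lists. Among 8 other lists the median was 1.03 for sex-biased, 0.51 for immediate early, 0.50 for lipogenesis and 0.42 for interferon-stimulated genes. It was 0.33 for stress response, 0.28 for circadian, 0.22 for proliferation and 0.16 for fatty acid oxidation genes. Members spread widely within a list: among lipid droplet genes the residual SD ran from 0.05 for Pnpla2, the main triglyceride lipase, to 1.40 for Cidea. In the 3 L-iAMPK_HFD+doxy livers, with only 2 degrees of freedom, the medians were 0.34 for macrophage, 0.22 for sterol, 0.25 for lipid droplet, 0.15 for matrix and 0.28 for acute-phase genes, and 0.11 over all genes. The difference in spread between the 9 livers and these 3 was not tested.

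**Figure D2:**
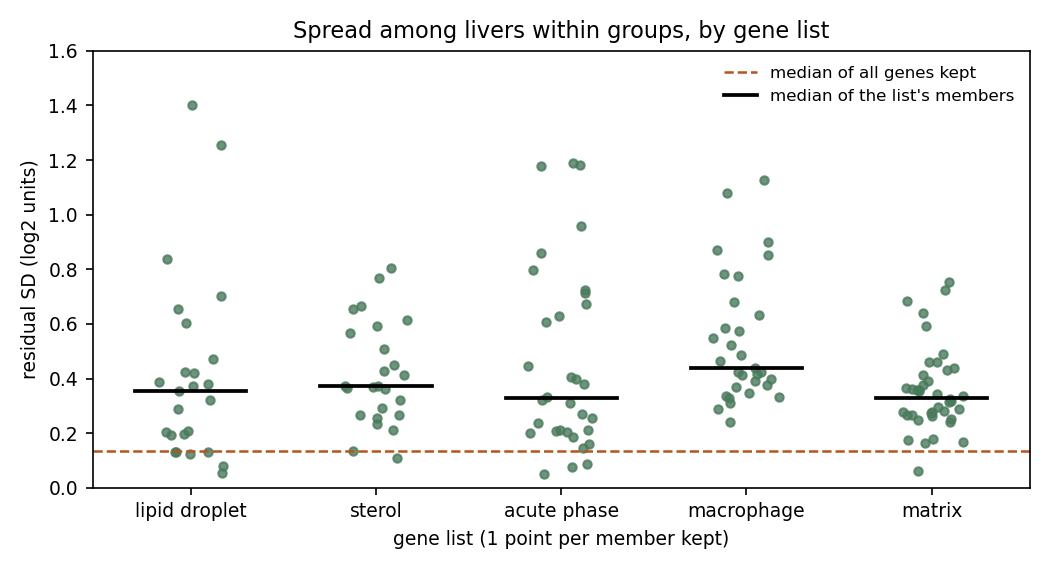
Each point is 1 member of a gene list, the vertical axis its residual SD in log2 units over the 9 livers, black bars the list medians and the dashed line the median of all genes kept. List medians lie between 0.33 and 0.44, against 0.14 for all genes.

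Within the lipid droplet list, Cidea, Cidec, Pnpla3, Plin4 and Fabp5 had the largest spread and Cideb and Pnpla2 the smallest. Cidec, also known as FSP27, which fuses droplets into larger ones, had 8.17, 32.9 and 23.6 FPKM in iAMPK_HFD+doxy livers, 30.2, 41.2 and 8.01 FPKM in L-iAMPK_HFD livers, and 3.68, 32.3 and 10.01 FPKM in iAMPK_HFD livers. It was lowest in iAMPK_HFD 1 and highest in L-iAMPK_HFD 2, and the groups overlapped throughout. Plin4, a perilipin, ran from 2.64 FPKM in L-iAMPK_HFD 3 to 14.6 FPKM in iAMPK_HFD 2, Fabp5, a fatty acid carrier, from 0.847 FPKM in iAMPK_HFD+doxy 1 to 5.03 FPKM in L-iAMPK_HFD 2, and Pnpla3, a droplet lipase relative whose human variant is tied to fatty liver, from 0.092 FPKM in iAMPK_HFD 1 to 3.65 FPKM in L-iAMPK_HFD 2. Plin2, the most abundant perilipin of hepatocytes, ran from 269 to 666.5 FPKM, and the fatty acid receptor Cd36 from 36.5 to 117 FPKM, both lowest in iAMPK_HFD 1 and highest in L-iAMPK_HFD 1. At the other end Pnpla2 (24.9 to 38.2 FPKM) and Cideb (194 to 228 FPKM), a CIDE protein of lipoprotein secretion, had residual SDs of 0.05 and 0.08. Of the 25 members, 15 had an r of at least 0.7 with the mean of the rest of the list, the size called close here, and 3 had an r below 0, among them Lipe, hormone-sensitive lipase (-0.68).

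Most sterol genes varied together. The mean r over all pairs of its 25 members was 0.70, beside 0.068 over all kept genes, and 22 members had an r of at least 0.7 with the rest of the list. Hmgcs1, an early enzyme of the mevalonate pathway, had 59.8, 95.0 and 115 FPKM in iAMPK_HFD+doxy livers, 195, 279.5 and 55.3 FPKM in L-iAMPK_HFD livers, and 37.6, 66.1 and 66.4 FPKM in iAMPK_HFD livers. Sqle, squalene epoxidase, had 16.7, 23.0 and 19.9 FPKM in iAMPK_HFD+doxy livers, 65.8, 67.7 and 18.8 FPKM in L-iAMPK_HFD livers, and 9.18, 15.1 and 14.7 FPKM in iAMPK_HFD livers. In both genes L-iAMPK_HFD 1 and 2 stood above the other 7 livers, L-iAMPK_HFD 3 lay among the livers of other groups, and iAMPK_HFD 1 was lowest. L-iAMPK_HFD 1 and 2 were the most alike of any replicate pair compared, with a chi-square per degree of freedom of 7.93 over recovered reads. The other pairs compared among the 9 livers had 22.8 to 56.9, and those of the L-iAMPK_HFD+doxy livers 19.2 to 47.5. Since 1 is sampling noise, L-iAMPK_HFD 1 and 2 were kept as 2 samples. Mvd, a later enzyme of that pathway, ran from 3.07 to 26.1 FPKM, lowest in iAMPK_HFD 1 and highest in L-iAMPK_HFD 1. Without L-iAMPK_HFD 3 the list's median residual SD fell to 0.22. Tm7sf2 and Ebp, later enzymes of the pathway, had residual SDs of 0.13 and 0.11, and Ebp ran against the list with r = -0.79.

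Because the sterol genes moved together, the 250 bases before the start site are shown for 2 of its most variable members, Hmgcs1 and Mvd, from the RefSeq promoter table (GRCm38.p6), with the sterol element core TCACNCCAC and the NF-Y box CCAAT, searched on both strands, in capitals. A CCAAT box on the other strand reads ATTGG. The Hmgcs1 window lies on chr13:119690101-119690350, plus strand, and the Mvd window on chr8:122443423-122443672, minus strand.
Hmgcs1: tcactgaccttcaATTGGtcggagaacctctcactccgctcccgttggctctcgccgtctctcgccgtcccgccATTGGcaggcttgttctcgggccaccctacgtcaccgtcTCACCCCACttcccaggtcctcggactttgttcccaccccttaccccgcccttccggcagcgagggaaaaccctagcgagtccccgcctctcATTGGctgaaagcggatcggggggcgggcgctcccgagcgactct
Mvd: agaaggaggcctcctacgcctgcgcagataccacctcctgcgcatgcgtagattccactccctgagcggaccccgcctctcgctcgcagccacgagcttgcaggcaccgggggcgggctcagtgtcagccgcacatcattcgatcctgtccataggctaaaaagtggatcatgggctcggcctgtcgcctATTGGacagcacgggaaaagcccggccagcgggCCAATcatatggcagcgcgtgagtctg

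Hmgcs1 has the sterol element core beginning at base -137 from the start site, and CCAAT on the opposite strand at -237, -176 and -45. Mvd has CCAAT at -27 and, on the opposite strand, at -60. The Mvd window held no TCACNCCAC, and in the Hmgcs1 window the 2 motifs did not overlap. Of the 17 sterol genes kept that have an entry, 16 held CCAAT in at least 1 window, beside 37.5% of all 27025 genes with an entry, and 1 held TCACNCCAC, beside 1.22% of them. A match is a description of the letters and not a site.

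Acute-phase genes followed several orders of livers. The mean r over pairs of its 32 members was 0.076, and only 5 members had an r of at least 0.7 with the rest of the list. Lcn2, lipocalin 2, an iron-siderophore binder induced in inflamed liver, had 13.0, 59.8 and 159 FPKM in iAMPK_HFD+doxy livers, 67.3, 59.5 and 26.5 FPKM in L-iAMPK_HFD livers, and 9.29, 25.8 and 16.5 FPKM in iAMPK_HFD livers. Saa2, a serum amyloid A gene, had 53.6, 126 and 301 FPKM in iAMPK_HFD+doxy livers, 117, 92.1 and 47.4 FPKM in L-iAMPK_HFD livers, and 34.0, 65.8 and 42.7 FPKM in iAMPK_HFD livers. Both genes peaked in iAMPK_HFD+doxy 3 and were lowest in iAMPK_HFD 1, and the groups overlapped, except that L-iAMPK_HFD lay above iAMPK_HFD for Lcn2. Orm2, an acid glycoprotein, ran from 6.02 FPKM in iAMPK_HFD 1 to 61.1 FPKM in iAMPK_HFD+doxy 3.

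The hepcidin genes, whose hormone blocks iron export, followed another order. Hamp had 634 FPKM in iAMPK_HFD+doxy 1 with 307 and 461 FPKM in the other 2 livers of its group, 51.0, 39.4 and 441 FPKM in L-iAMPK_HFD livers, and 531, 350.8 and 743 FPKM in iAMPK_HFD livers. Hamp2 had 39.4, 62.2 and 63.4 FPKM in iAMPK_HFD+doxy livers, 50.02, 82.4 and 283.5 FPKM in L-iAMPK_HFD livers, and 19.5, 22.3 and 134 FPKM in iAMPK_HFD livers. Hamp was low in L-iAMPK_HFD 1 and 2 alone, and Hamp2 was highest in L-iAMPK_HFD 3 and iAMPK_HFD 3. The 2 hepcidin genes are close copies that may share reads. Crp and Serpina3n, both secreted by hepatocytes, had residual SDs of 0.07 and 0.05.

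**Figure D3:**
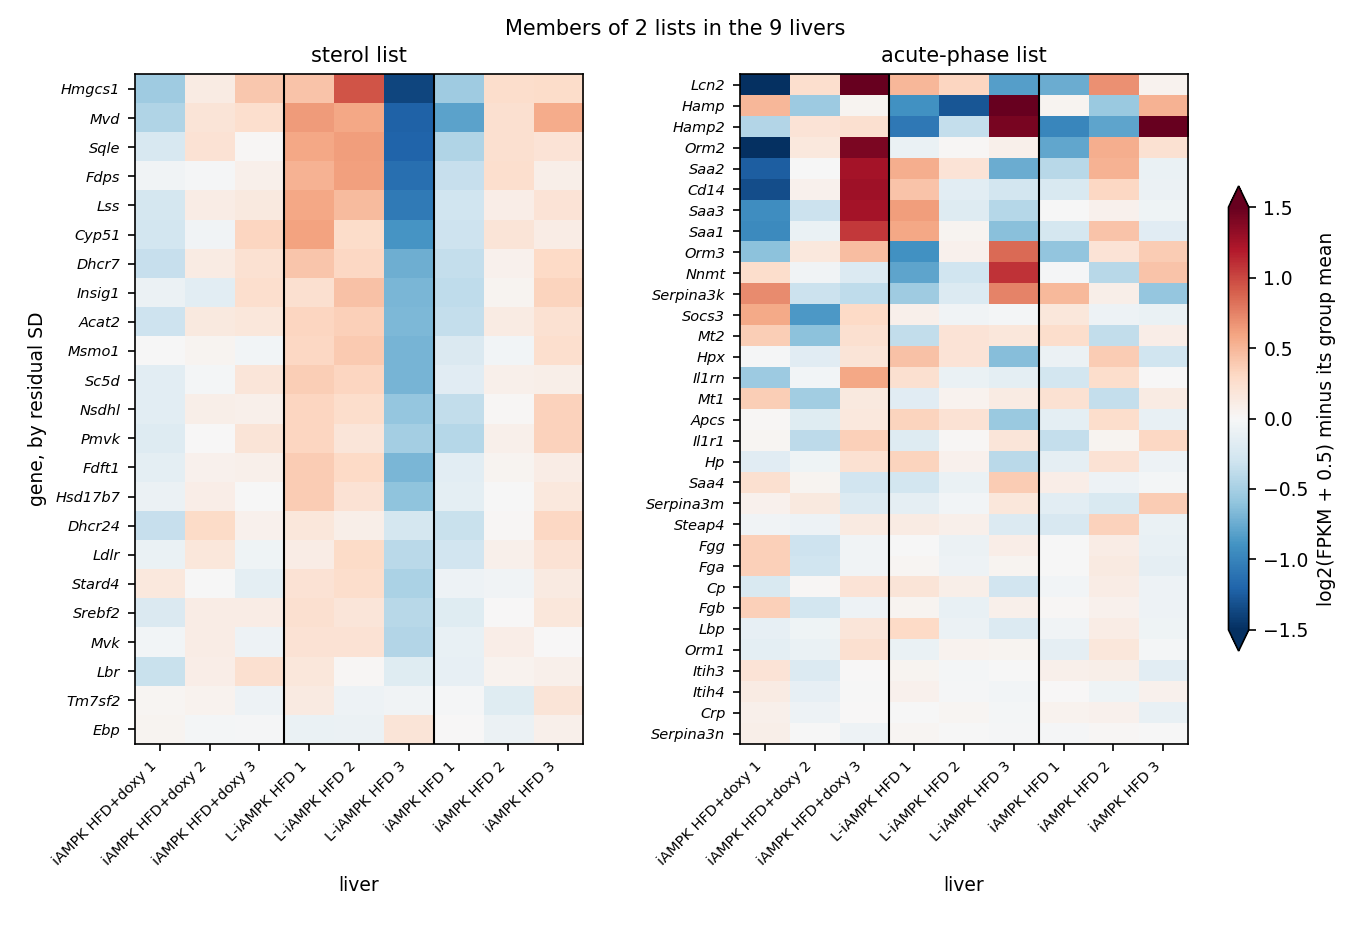
Rows are the reported members of the sterol list (left) and the acute-phase list (right) among those kept, from the largest residual SD down, and columns the 9 livers; colour gives log2(FPKM + 0.5) minus the group mean, values past the ends of the scale taking its end colours. The sterol rows change colour together, deepest blue in L-iAMPK_HFD 3, while in the acute-phase list Lcn2, Orm2, the Saa genes and Cd14 are reddest in iAMPK_HFD+doxy 3 and Hamp and Hamp2 have other patterns.

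The macrophage list was the most coherent in sign, with 99.8% of its pairs positively correlated, a mean r of 0.73 and 26 of 31 members at an r of at least 0.7 with the rest. Cd68, a lysosomal glycoprotein of macrophages, had 10.1, 13.0 and 21.0 FPKM in iAMPK_HFD+doxy livers, 16.7, 16.2 and 11.3 FPKM in L-iAMPK_HFD livers, and 7.30, 6.96 and 9.80 FPKM in iAMPK_HFD livers. Every iAMPK_HFD liver lay below the other 6, and iAMPK_HFD+doxy 3 was highest. The genes that varied most were Cd63 (0.900 to 18.9 FPKM), a tetraspanin of late endosomes, Spp1 (24.6 to 178 FPKM), osteopontin, the monocyte attractant Ccl2 (0.767 to 10.1 FPKM), the interferon-gamma-induced chemokine Cxcl9 (2.72 to 20.6 FPKM) and the elastase Mmp12 (0.539 to 6.75 FPKM). Of these, Spp1, Ccl2, Cxcl9 and Mmp12 peaked in iAMPK_HFD+doxy 3 and Cd63 in L-iAMPK_HFD 2. The Kupffer cell gene Clec4f and the complement gene C1qa had the smallest spread of the list, at 0.24 and 0.29. Without iAMPK_HFD+doxy 1 the list's median residual SD was 0.32, and without iAMPK_HFD+doxy 3 it was 0.35.

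Markers of other immune cells were low in all 9 livers. The summed level of 18 lymphocyte markers ran from 5.35 to 9.47 FPKM in iAMPK_HFD+doxy, 3.86 to 6.47 FPKM in L-iAMPK_HFD and 2.89 to 4.85 FPKM in iAMPK_HFD livers, and that of 13 neutrophil markers from 3.23 to 7.45, 4.57 to 10.9 and 2.33 to 3.62 FPKM in the same groups. No lymphocyte marker and 2 neutrophil markers passed the filter on low genes. Of 16 markers of pancreas and gallbladder, 9 were at 0 in all 9 livers. The summed level of 20 endothelial markers ran from 205 to 238 FPKM in iAMPK_HFD+doxy, 223 to 237 FPKM in L-iAMPK_HFD and 177 to 219.9 FPKM in iAMPK_HFD livers, and their score had r = 0.83 with the macrophage score (rho 0.88, 0.82 without the 2 livers farthest out). The part of these cells in the spread of the macrophage genes was not tested.

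The matrix list was close to the macrophage list in coherence, with a mean r of 0.66 and 34 of 40 members at an r of at least 0.7 with the rest. Col3a1, the chain of type III collagen, had 5.17, 13.2 and 16.3 FPKM in iAMPK_HFD+doxy livers, 15.7, 16.9 and 7.44 FPKM in L-iAMPK_HFD livers, and 5.32, 11.6 and 4.31 FPKM in iAMPK_HFD livers. It was low in iAMPK_HFD+doxy 1, L-iAMPK_HFD 3, iAMPK_HFD 1 and iAMPK_HFD 3, and the groups overlapped. Timp1, an inhibitor of matrix proteases, ran from 0.107 to 3.37 FPKM, the type I collagen chains Col1a1 and Col1a2 from 0.522 to 3.78 and from 2.47 to 8.99 FPKM, and the growth factor Ctgf from 1.67 to 7.89 FPKM. Fn1, fibronectin, which hepatocytes also secrete, ran only from 179 to 238 FPKM (residual SD 0.06), and Rgs5, a pericyte gene, had a residual SD of 0.17. Acta2, smooth muscle actin and a marker of activated stellate cells, had an r of -0.030 with the rest of the list.

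**Figure D4:**
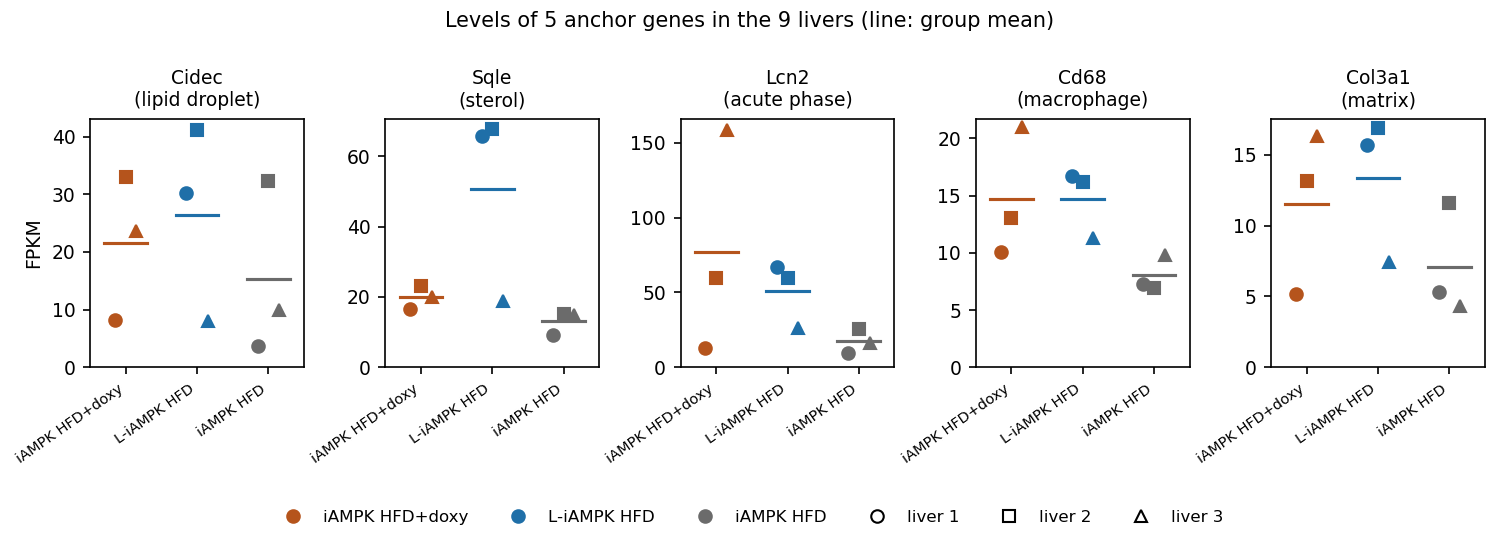
FPKM of 1 gene from each of the 5 lists in the 9 livers (circle, liver 1; square, liver 2; triangle, liver 3; line, group mean; linear axes from 0). Liver 1 of iAMPK_HFD+doxy, liver 3 of L-iAMPK_HFD and liver 1 of iAMPK_HFD are the lowest of their groups for Cidec and Sqle, and iAMPK_HFD+doxy 3 is the highest liver for Lcn2 and Cd68.

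How the 5 lists varied together was described with list scores, the mean over a list's kept members of the log2 values relative to the group mean, over 9 livers and with no p, since livers share libraries and depth across lists. Among the 5 lists the lipid droplet score followed the matrix score most closely, with r = 0.93 and rho = 0.93. Without the 2 livers farthest from the median of the lipid droplet score, iAMPK_HFD+doxy 1 and iAMPK_HFD 1, r was 0.95. The range of r over all alternatives run was 0.90 to 0.98, so it was close in each of them. Both scores also followed the first axis of all kept genes (r = 0.91 each), as did the macrophage (0.91), proliferation (0.90) and sex-biased (-0.91) scores. The lipid droplet score had r = -0.87 with the sex-biased and 0.81 with the proliferation score. Whether the relation is particular to lipid droplet and matrix genes was not tested. The lipid droplet scores were -0.37, 0.17 and 0.19 in iAMPK_HFD+doxy livers, 0.14, 0.17 and -0.31 in L-iAMPK_HFD livers, and -0.31, 0.35 and -0.04 in iAMPK_HFD livers. The matrix scores were -0.46, 0.16 and 0.30 in iAMPK_HFD+doxy livers, 0.12, 0.18 and -0.29 in L-iAMPK_HFD livers, and -0.12, 0.24 and -0.13 in iAMPK_HFD livers. The lowest liver of each group by lipid droplet score was also the lowest by matrix score in iAMPK_HFD+doxy and L-iAMPK_HFD, while in iAMPK_HFD the lowest was liver 1 by lipid droplet score and liver 3 by matrix score.

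The other relations were looser or rested on a few livers. Macrophage and matrix scores had r = 0.85 and rho = 0.63, and r = 0.66 without the 2 farthest livers (iAMPK_HFD+doxy 1 and 3). Lipid droplet and sterol scores had r = 0.73 and rho = 0.47, and lipid droplet and macrophage scores r = 0.72 and rho = 0.60, the last falling to 0.53 without the 2 farthest livers. Sterol scores had r = 0.64 with matrix (rho 0.43, 0.53 without 2 livers) and 0.58 with macrophage scores (rho 0.83, 0.60 without 2 livers). The acute-phase score had r = 0.70 with the macrophage score, 0.46 with the matrix score and 0.41 with the lipid droplet score, and these were -0.13, -0.23 and -0.0078 without the 2 livers farthest out. The first 2 of them rested on iAMPK_HFD+doxy 1 and 3, since without iAMPK_HFD+doxy 3 alone they were 0.026 and 0.053. With 1 liver left out the highest values of the 3 relations were 0.83, 0.65 and 0.60. Sterol and acute-phase scores had r = 0.082 (rho 0.10).

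**Figure D5:**
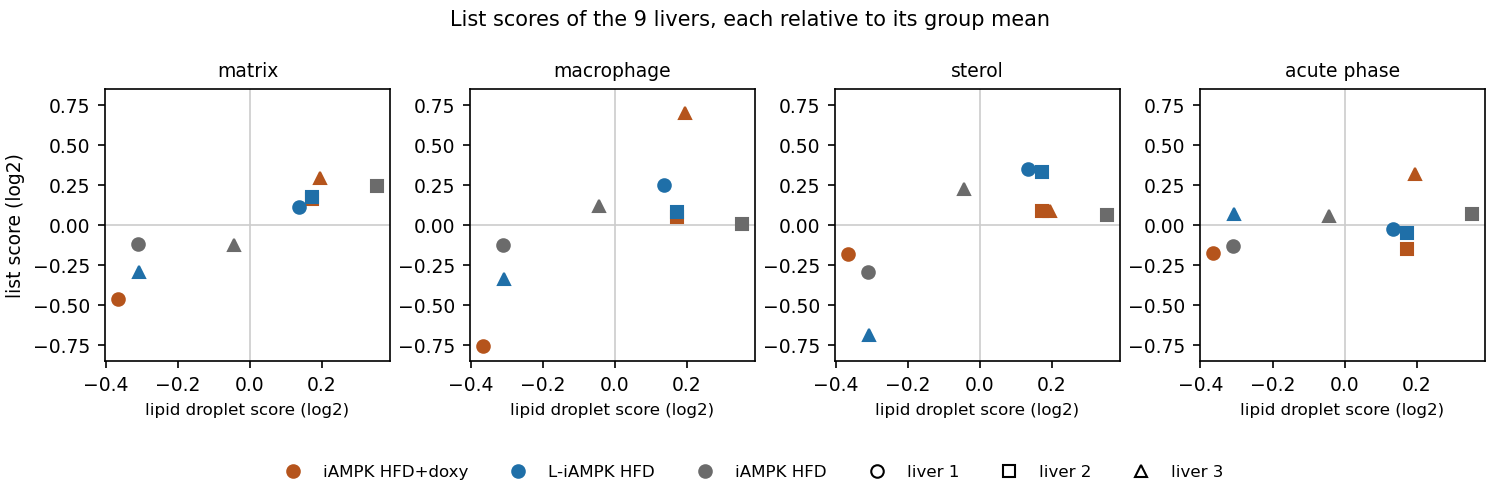
Each panel plots the lipid droplet score of the 9 livers (horizontal axis, log2 units relative to the group mean) against the matrix, macrophage, sterol or acute-phase score (vertical axis); colours are groups and shapes the livers 1, 2 and 3. The points lie along a line for matrix (r = 0.93), and the acute-phase panel has 1 high liver, iAMPK_HFD+doxy 3.

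The score of a list of bile duct cell markers moved with these scores. The list's 8 kept members include Ly6d (residual SD 1.58, the largest of the list), Sprr1a, Krt8 and Spp1. Spp1 is also on the macrophage list and ran from 24.6 to 178 FPKM over the 9 livers. The mean r over pairs of the 8 kept members was 0.41. Their score had r = 0.99 with the matrix score and 0.96 with the lipid droplet score. A score without Ly6d was not examined. The summed level of all 15 markers ran from 171 to 440 FPKM in iAMPK_HFD+doxy, 198 to 392 FPKM in L-iAMPK_HFD and 146 to 244 FPKM in iAMPK_HFD livers. The score of 26 hepatocyte markers, a loose list with a mean pairwise r of 0.16, ran the other way. It had r = -0.66 with the lipid droplet score and -0.88 with the sterol score. Without the 2 livers farthest out by the hepatocyte score these were -0.65 and -0.57. The markers' summed level ran from 78301 to 90466 FPKM in iAMPK_HFD+doxy, 85100 to 87026 FPKM in L-iAMPK_HFD and 81983 to 90362 FPKM in iAMPK_HFD livers. Of 10 fat cell markers, 2 were at 0 in all 9 livers, and their score had r = 0.57 with the lipid droplet score, which shares Lipe, Pparg and Fabp4 with it. The part of these cells in the relation of lists was not tested.

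For single genes an exact permutation test over all orders of the livers within groups was made for the 10 pairs of the 5 genes Cidec, Sqle, Lcn2, Cd68 and Col3a1. Cidec and Sqle had r = 0.80 (rho 0.88), with an exact two-sided p of 0.00463, the smallest the orders allow, and 0.0463 after Benjamini-Hochberg adjustment over the 10 pairs. It was the only pair past the threshold of 0.05, and with median-ratio scaling or quantile normalization its adjusted exact p was 0.0772. Without the 2 livers farthest from the median of Cidec, iAMPK_HFD 1 and L-iAMPK_HFD 3, r was 0.64. Cidec and Col3a1 (r = 0.86), Lcn2 and Col3a1 (r = 0.87), Cidec and Lcn2 (r = 0.75) and Sqle and Lcn2 (r = 0.54) each had an adjusted exact p of 0.0648. The rest had adjusted exact p-values from 0.0992 to 0.278, among them Lcn2 and Cd68 (r = 0.82) and Cidec and Cd68 (r = 0.42). With each of the 9 livers left out in turn r of Cidec and Sqle lay between 0.76 and 0.89. The adjusted exact p lay between 0.0694 (without iAMPK_HFD 2) and 0.278 (without L-iAMPK_HFD 3), so the pair missed the threshold in each of these refits. They have only 72 orders of livers, with a smallest exact p of 0.0139 before adjustment over the 10 pairs. That floor leaves little room to pass, so the misses say little about the pair.

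Which genes of the whole table followed each of these 5 was tested with limma, with group means and the log2 level of the gene as terms, and Benjamini-Hochberg adjustment over the other 10982 genes. Slopes are log2 units per log2 unit. Sqle was followed by 206 genes (1.88%), of which 82 rose (0.747%) and 124 fell (1.13%) with it. Of the 24 other sterol genes 18 rose and none fell, their median slope being 0.54 beside 0.01 over all genes, and of 21 lipogenesis genes 7 rose. Lss, lanosterol synthase, rose with a slope of 0.85 ± 0.07 (SE; limma adjusted p = 0.00423), as did Fdps, which makes farnesyl diphosphate (0.89), Fads1, a fatty acid desaturase (0.59), and Gpam, which starts triglyceride synthesis (0.87), all with the same adjusted p. Lss had 7.15, 9.46 and 9.69 FPKM in iAMPK_HFD+doxy livers, 23.5, 21.7 and 7.18 FPKM in L-iAMPK_HFD livers, and 4.97, 6.68 and 7.24 FPKM in iAMPK_HFD livers, with L-iAMPK_HFD 1 and 2 on top, as for Sqle.

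The 5 named genes that fell with Sqle were liver enzymes, a transporter and a urinary protein. Cyp2c54, a P450 gene, had the smallest p of the fit, with a slope of -1.55 ± 0.10 (SE; limma adjusted p = 0.00189). It had 53.3, 27.6 and 31.0 FPKM in iAMPK_HFD+doxy livers, 6.78, 7.56 and 55.2 FPKM in L-iAMPK_HFD livers, and 87.7, 49.7 and 56.7 FPKM in iAMPK_HFD livers, lowest in L-iAMPK_HFD 1 and 2, the livers with the most Sqle. The alcohol dehydrogenase Adh4, the P450 gene Cyp2c44, the urinary protein gene Mup3 and the organic anion transporter Slc22a7 fell with slopes of -0.46, -0.75, -0.94 and -1.10, at adjusted p-values of 0.00423 to 0.00525. Of the lipid droplet list Plin4, Pnpla3 and Fabp5 rose with Sqle, of the matrix list Reln and Hgf rose, and of the acute-phase list Hamp fell. No macrophage gene of 31 was called (limma; 0 at an adjusted p under 0.05), beside 1.88% of all genes. Of their slopes 29 were above 0, with a median of 0.31 beside 0.01 over all genes. The 9 genes named above with a slope on Sqle lost the call without L-iAMPK_HFD 3 (limma adjusted p 0.0913 to 0.346) and kept it without each of the other 8 livers. The count of calls was 2 without L-iAMPK_HFD 3, 19 and 17 without L-iAMPK_HFD 1 and 2, 114 without iAMPK_HFD+doxy 2, and 68 and 91 without iAMPK_HFD 1 and 2.

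Cidec was followed by few genes, 25 (0.228%), of which 19 rose (0.173%) and 6 fell (0.0546%). Cox7a1, a subunit of mitochondrial cytochrome oxidase, rose with a slope of 0.30 ± 0.03 (SE; limma adjusted p = 0.0162) and Lgals1, galectin 1, with 0.37 (0.0210). Lgals1 had 49.7, 95.6 and 91.6 FPKM in iAMPK_HFD+doxy livers, 147, 146 and 88.7 FPKM in L-iAMPK_HFD livers, and 39.7, 80.9 and 64.0 FPKM in iAMPK_HFD livers. In each group it was lowest in the liver lowest for Cidec, and L-iAMPK_HFD lay above iAMPK_HFD, while iAMPK_HFD+doxy overlapped with both. The endothelial gene Esm1, the axonal adhesion gene Cntnap1 and the noncoding host gene Snhg11 rose with slopes of 0.40, 0.43 and 0.28.

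Igfbp2, a binding protein for insulin-like growth factors, fell with Cidec with a slope of -0.49 ± 0.05 (SE; limma adjusted p = 0.0144). It had 149.5, 90.4 and 80.5 FPKM in iAMPK_HFD+doxy livers, 21.4, 21.5 and 47.6 FPKM in L-iAMPK_HFD livers, and 165, 59.8 and 92.8 FPKM in iAMPK_HFD livers, with all L-iAMPK_HFD livers below the other 6. Mup12, the elastase gene Cela1, the amino acid transporter Slc16a10 and the adhesion gene Cadm4 fell with slopes of -0.84, -0.33, -0.21 and -0.41. None of the 24 other lipid droplet genes was called by limma, although 20 slopes were above 0 and the median was 0.19 beside 0.01 over all genes, with 1781 genes at an unadjusted p under 0.05. Of 40 matrix genes 39 had a slope above 0 and 1, the fibril-associated collagen Col14a1, was called. The count of 25 calls was 0, 2 and 51 without iAMPK_HFD+doxy 1, 2 and 3, 6, 14 and 2 without L-iAMPK_HFD 1, 2 and 3, and 0, 39 and 54 without iAMPK_HFD 1, 2 and 3, with 1028 to 2159 genes at an unadjusted p under 0.05 in these limma refits. Igfbp2 and Cela1 were called in 6 of the 9 refits and Cox7a1 and Lgals1 in 4.

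Lcn2 was followed by the most genes, 612 (5.57%), of which 544 rose and 68 fell (0.619%). Genes of macrophages and matrix rose with it: 14 of 31 macrophage genes, among them Trem2, Itgax and Ccr2, and 18 of 40 matrix genes, among them Col3a1, Col4a1 and Postn, beside 4.95% of all genes rising. Of the other 31 acute-phase genes 5 rose (Saa1, Saa2, Orm2, Il1rn and Cd14), and their median slope was -0.01 beside 0.03 over all genes. Ubd, a ubiquitin-like protein induced by interferon gamma and TNF, rose with a slope of 0.91 ± 0.05 (SE; limma adjusted p = 0.000698). It had 1.32, 5.78 and 16.2 FPKM in iAMPK_HFD+doxy livers, 8.55, 5.98 and 2.57 FPKM in L-iAMPK_HFD livers, and 1.38, 3.92 and 1.92 FPKM in iAMPK_HFD livers, in the order of Lcn2 within each group. Lgals3, galectin 3 of macrophages, Saa2, Sprr1a, a cornified envelope protein, and Cd52, a leukocyte surface peptide, rose with slopes of 0.58, 0.71, 0.90 and 0.38.

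Of the lipid droplet list the hypoxia-induced droplet protein Hilpda, Cd36 and the fatty acid carrier Fabp4 rose with Lcn2 and Lipe fell. The genes falling with the smallest p were Gpcpd1, a glycerophosphocholine phosphodiesterase, Gne, of sialic acid synthesis, the pseudogene Adh6-ps1, the kinase gene Dclk3 and Phlda1, with slopes from -0.18 to -0.61. Of the 20 most variable genes only Ly6d rose with Lcn2 (slope 1.24 ± 0.19, SE; limma adjusted p = 0.0224), beside 4.95% of all genes rising. Only Mup6 fell (-1.03 ± 0.20, SE; limma adjusted p = 0.0417), beside 0.619% of all genes falling. Ubd, Lgals3 and Saa2 were called without each of the 9 livers in turn, with adjusted p-values up to 0.0320. The count of 612 was 6, 346 and 40 without iAMPK_HFD+doxy 1, 2 and 3, 241 and 337 without L-iAMPK_HFD 1 and 2, and 383 without iAMPK_HFD 1.

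Col3a1 was followed by 118 genes (1.07%), of which 106 rose and 12 fell (0.109%). Of the 39 other matrix genes 15 rose and none fell, beside 0.965% of all genes rising, and all 39 slopes were above 0. Col1a1 rose with a slope of 0.93 ± 0.07 (SE; limma adjusted p = 0.00450) and Col1a2 with 0.86 (0.00619). The centrosome gene Haus8, the calcium-binding S100a11 and the tropomyosin gene Tpm1 rose with slopes of 0.81, 1.11 and 0.48. Haus8 had 3.01, 5.66 and 7.18 FPKM in iAMPK_HFD+doxy livers, 11.5, 11.2 and 5.32 FPKM in L-iAMPK_HFD livers, and 3.22, 6.43 and 2.65 FPKM in iAMPK_HFD livers, highest in L-iAMPK_HFD 1 and 2.

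Beside the 0.965% of all genes rising, 1 of 25 lipid droplet genes rose with Col3a1, Pparg, the transcription factor of fat storage. Of the macrophage list Trem2 and Spp1, known from lipid-associated macrophages, rose among 31. Falling genes included Lect1, a chondromodulin, the lectin gene Clec2d, the amino acid transporter Slc43a1, Glt1d1 and the pro-apoptotic Bmf, with slopes from -0.38 to -0.75. Haus8, Col1a1, S100a11 and Tpm1 were called without each of the 9 livers, with adjusted p-values up to 0.0410, and Col1a2 missed narrowly without iAMPK_HFD+doxy 1. The count of 118 was 15, 50 and 10 without iAMPK_HFD+doxy 1, 2 and 3, 11, 7 and 8 without L-iAMPK_HFD 1, 2 and 3, and 47, 23 and 697 without iAMPK_HFD 1, 2 and 3.

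Cd68 was followed by 50 genes (0.455%), of which 49 rose and 1 fell (0.00911%). Of the 30 other macrophage genes 8 rose, beside 0.446% of all genes rising: the receptor Csf1r, Cd5l, the 3 complement C1q chains, Ctss, Tyrobp and Cxcl9, and all 30 slopes were above 0. C1qb rose with a slope of 0.88 ± 0.09 (SE; limma adjusted p = 0.0262), and the interleukin-18 antagonist Il18bp, the perforin-like Mpeg1, the oxidase subunit Cybb and the integrin Itgb2 with slopes of 1.06, 1.17, 1.09 and 1.33. Mpeg1 had 19.4, 32.3 and 47.5 FPKM in iAMPK_HFD+doxy livers, 45.5, 44.5 and 28.7 FPKM in L-iAMPK_HFD livers, and 17.3, 19.2 and 25.5 FPKM in iAMPK_HFD livers. Its values in iAMPK_HFD+doxy overlapped with both other groups, L-iAMPK_HFD lay above iAMPK_HFD, and its highest liver, iAMPK_HFD+doxy 3, was also the highest for Cd68. The replication gene Mcm10 fell (slope -1.04).

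No lipid droplet, sterol, acute-phase or matrix gene was called with Cd68 by limma, beside 0.455% of all genes, with 1899 genes at an unadjusted p under 0.05. At that share the absence of calls says little about these lists. Slopes were above 0 for 20 of 25 lipid droplet, 24 of 25 sterol, 18 of 32 acute-phase and 38 of 40 matrix genes. Their medians were 0.46, 0.68, 0.18 and 0.52, beside 0.06 over all genes. With median-ratio scaling limma called no gene with Cd68 (1885 at an unadjusted p under 0.05), and edgeR on 8 livers called 66. The count of 50 was 0, 66 and 1 without iAMPK_HFD+doxy 1, 2 and 3, 0, 0 and 1 without L-iAMPK_HFD 1, 2 and 3, and 0, 179 and 50 without iAMPK_HFD 1, 2 and 3, with 883 to 2335 genes at an unadjusted p under 0.05 in these limma refits. The 5 named rising genes were called in 3 of the 9 refits.

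The groups also differed from one another. The median share of a gene's variance lying within groups was 64.4% over all kept genes, where equal groups would leave about 75% by degrees of freedom, and it was 50.9% over sterol, 50.5% over macrophage, 57.3% over lipid droplet, 59.3% over acute-phase and 61.7% over matrix genes. For iAMPK_HFD+doxy against iAMPK_HFD, which addresses doxycycline without AMPK activation, limma called 1 of 10983 genes (0.00910%), Ccnf, cyclin F. It had 5.17, 5.14 and 4.88 FPKM in iAMPK_HFD+doxy livers and 8.77, 9.69 and 9.17 FPKM in iAMPK_HFD livers (log2 fold change -0.80 ± 0.07, SE; limma adjusted p = 0.0107), with no overlap. Arhgef26, a guanine nucleotide exchange factor, and Trp53inp2, an autophagy protein, came next with log2 fold changes of -0.98 and -0.42 and adjusted p-values of 0.137 and 0.155. No member of the 5 lists was called by limma, with 585 genes at an unadjusted p under 0.05. With 1 call over all genes, this says little about the lists. Their median log2 fold changes were 0.71 for macrophage, 0.33 for sterol and 0.24 for matrix genes. They were 0.12 for acute-phase and 0.08 for lipid droplet genes, beside 0.02 over all genes. Ccnf kept its call without iAMPK_HFD+doxy 1, L-iAMPK_HFD 1 and L-iAMPK_HFD 3, and missed it without each of the other 6 livers (highest adjusted p 0.112), and edgeR on 8 livers called no gene, with 638 at an unadjusted p under 0.05.

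For L-iAMPK_HFD against iAMPK_HFD, which addresses Albumin-Cre without doxycycline, limma called 222 genes (2.02%), 131 higher and 91 lower. Apol9b, an interferon-induced apolipoprotein L, had 15.9, 16.4 and 18.8 FPKM in L-iAMPK_HFD livers and 32.8, 35.6 and 36.2 FPKM in iAMPK_HFD livers (log2 fold change -1.02 ± 0.08, SE; limma adjusted p = 0.00356), with no overlap. Car3, a carbonic anhydrase abundant in liver, had 435, 552.5 and 577 FPKM in L-iAMPK_HFD livers and 1970, 1933 and 1494 FPKM in iAMPK_HFD livers (-1.78; adjusted p = 0.00948), and Trp53inp2 fell by 0.62 on the log2 scale at the same adjusted p. Both comparisons share the iAMPK_HFD livers.

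Of the 5 lists Pnpla2, Mvk, Tm7sf2 and Timp3 were higher and Crp and Col5a3 lower in L-iAMPK_HFD than in iAMPK_HFD livers, 6 of 153 members, beside 2.02% of all genes called. Sqle (log2 fold change 1.75; adjusted p = 0.0901) and Cd68 (0.83; 0.118) missed the threshold. The count of 222 was 8, 1 and 948 without L-iAMPK_HFD 1, 2 and 3, 7, 45 and 47 without iAMPK_HFD 1, 2 and 3, and 542 and 65 without iAMPK_HFD+doxy 1 and 2, which enter only through the shared spread.

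Set beside the 3 L-iAMPK_HFD+doxy livers, the 9 livers were higher throughout for some of the genes described and overlapped for others. Cidec ran from 3.68 to 41.2 FPKM in the 9 livers and from 1.59 to 3.35 FPKM in the 3 with active AMPK, Lcn2 from 9.29 to 159 and from 2.83 to 3.44 FPKM, and Col3a1 from 4.31 to 16.9 and from 2.04 to 3.53 FPKM. Selenbp2 ran from 2.14 to 151.5 FPKM in the 9 and from 0.168 to 1.32 FPKM in the 3. Sqle (9.18 to 67.7 against 7.04 to 10.2 FPKM) and Cd68 (6.96 to 21.0 against 7.19 to 11.6 FPKM) overlapped, as did the other 19 of the 20 most variable genes. Cyp2b9 also differed among the 3 L-iAMPK_HFD+doxy livers, at 1.81, 144 and 55.3 FPKM.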

How the data were processed

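RNA from flash-frozen liver was sequenced as poly(A) libraries made with a strand-marking kit, per the labels' protocols. The submitters' processing notes list mm10 as build and FastQC, HOMER, STAR 2.4.0k and edgeR 3.6.8 as tools, without roles, and no source says whether counting used strand, so overlapping and antisense genes may share reads. FPKM values were deposited by the authors with 0.5 added to each, which was subtracted here, for 24453 genes, of which 26 have symbols turned into dates. The deposited signal per gene, tags scaled by the authors to 1 common library size, served for depth and for an alternative test. Whole reads were recovered from it for 8 of the 9 livers (100% of values within 0.02 reads, 13569437 to 19078035 reads in genes). In iAMPK_HFD+doxy 2, 1 read is worth 0.995 tags, which cannot be told from a whole tag, so that library was left out there.

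Genes with a mean of at least 1 FPKM over the 9 livers were kept, and log2(FPKM + 0.5) was used throughout, a scale that understates changes of low genes. Groups came from the labels. The planned design allowed for counts or FPKM, and FPKM was what the table holds. Slopes and group differences were fitted with limma 3.58.1 (trend and robust steps, R 4.3.3, Benjamini-Hochberg adjustment), with all 3 groups sharing 1 estimate of spread, and single pairs of genes were tested by exact permutation within groups. The code was tested on simulated data. As alternatives, pseudocounts of 1 and 0.1, quantile normalization, a filter at 2 FPKM or none, median-ratio scaling, group means kept in, a replicate block, no trend and robust steps, list medians, rank correlation and leaving out each liver were tried, and, after seeing the data, edgeR 4.0.16 on the recovered reads.

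The 9 livers and the gene lists were chosen with earlier results of these data known. Named genes are the 20 with the largest residual SD, the 5 list genes tested, in each main list the 5 members with the largest and the 2 with the smallest residual SD, the 5 rising and 5 falling genes with the smallest p among those called in each slope fit, and the 3 with the smallest p in each group comparison. Predicted genes, Rik clones, microRNA and small nucleolar RNA symbols were left out of the names. Some genes the rule picks are not reported here. Other members named were chosen after their values were seen.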

Additional observations from a re-analysis of the deposited data

Results flagged for a closer look

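Of 30 genes and scores examined over the 9 livers, 2 had 1 liver whose gap to its nearest neighbour as a share of the whole range passed the 95% limit of Dixon's test. That limit is passed by chance in about 1 of 20 sets. Genes chosen for their spread in these livers, Mug2 among them, were included, so this rate does not hold for them. The 2 are given as a description. Mug2 was at 3.68 FPKM in L-iAMPK_HFD 1, against 77.1 FPKM in the next lowest liver. On the scale of log2(FPKM + 0.5), group means kept in, this was a gap of 0.831 of the range. The acute-phase score was 0.32 in iAMPK_HFD+doxy 3, against 0.07 in the next highest liver, a gap of 0.502 of the range. The cause of either was not tested.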

How the results depend on the processing

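No value past its threshold changed direction under any alternative run. The numbers of the livers did not pair them: residuals of livers with the same number had r from -0.34 to 0.51 for number 1, 0.11 to 0.25 for 2 and -0.32 to 0.16 for 3. With the replicate block the counts of calls were 5 with Cidec, 73 with Sqle and 402 with Lcn2, 96 for L-iAMPK_HFD and 0 for iAMPK_HFD+doxy against iAMPK_HFD, the first axis held 53.4%, and the acute-phase score had r = 0.81 with lipid droplet, 0.81 with matrix and 0.71 with macrophage scores.

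The 76 genes past 1 log2 unit were 126 with a pseudocount of 0.1 and 39 with 1. The first axis held 37.7% with no filter and 50.3% with group means kept in. Calls with Cidec were 6 with no filter, 2 with group means kept in, 9 without trend and robust steps and 14 by edgeR. Calls with Sqle were 115 with median-ratio scaling, 89 with no filter, 1502 with group means kept in, 121 without trend and robust steps and 49 by edgeR. Calls with Lcn2 were 274 with quantile normalization, 383 with no filter and 321 by edgeR. Calls with Cd68 were 0 with median-ratio scaling and with no filter (limma, 1885 and 2868 at an unadjusted p under 0.05), 10 with quantile normalization and 561 with group means kept in. Calls with Col3a1 were 60 with quantile normalization, 26 with no filter and 645 with group means kept in. For L-iAMPK_HFD against iAMPK_HFD they were 123 with no filter and 120 by edgeR, and for iAMPK_HFD+doxy against iAMPK_HFD 0 by edgeR.

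Lipid droplet and macrophage scores had r = 0.66 with median-ratio scaling, 0.67 with quantile normalization, 0.70 (just under 0.7) with a pseudocount of 1 and 0.66 with a filter at 2 FPKM, and rho = 0.60. Lipid droplet and sterol scores had r = 0.67 with that filter and 0.66 with list medians, and rho = 0.47. Macrophage and matrix scores had rho = 0.63. Acute-phase and macrophage scores had r = 0.76 with quantile normalization, 0.72 with no filter, and 0.70 with a pseudocount of 0.1 and with the filter at 2 FPKM. Sterol scores had r = 0.72 with macrophage and 0.78 with matrix scores with group means kept in, rho = 0.83 with macrophage and r = 0.71 with matrix scores with list medians. The causes were not tested.

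Leaving out each liver gave 59 to 88 most variable genes, list medians of 0.30 to 0.39 (lipid droplet), 0.22 to 0.41 (sterol), 0.29 to 0.35 (acute-phase), 0.32 to 0.49 (macrophage) and 0.26 to 0.35 (matrix), and 39.2% to 50.5% on the first axis. The r of scores lay between 0.65 and 0.83 for lipid droplet and sterol, 0.16 and 0.60 for lipid droplet and acute-phase, 0.52 and 0.88 for lipid droplet and macrophage, 0.91 and 0.98 for lipid droplet and matrix, -0.066 and 0.56 for sterol and acute-phase, 0.52 and 0.75 for sterol and macrophage, 0.52 and 0.75 for sterol and matrix, 0.026 and 0.83 for acute-phase and macrophage, 0.053 and 0.65 for acute-phase and matrix, and 0.62 and 0.93 for macrophage and matrix. Calls ran from 0 to 54 with Cidec, 2 to 292 with Sqle, 6 to 704 with Lcn2, 0 to 179 with Cd68, 7 to 697 with Col3a1, 1 to 948 for L-iAMPK_HFD and 0 to 2 for iAMPK_HFD+doxy against iAMPK_HFD (limma, 365 to 1366 at an unadjusted p under 0.05). Counting error, a median of 0.07 log2 units, limits low genes most.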

Other observations

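Lipogenesis genes, which build fatty acids and triglycerides, followed the sterol genes: over the 9 livers the scores of the 2 lists had r = 0.98 (rho 0.95), and 0.93 without the 2 livers farthest out. All 21 lipogenesis genes were kept, with a median residual SD of 0.50. The summed level of the list was 3322, 4738 and 4558 FPKM in iAMPK_HFD+doxy livers, 7969, 9548 and 4677 FPKM in L-iAMPK_HFD livers, and 2262, 3897 and 5240 FPKM in iAMPK_HFD livers. Fatty acid oxidation genes varied less, with a median residual SD of 0.16 over 28 genes, and their score had r = 0.50 with the sterol score.

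Interferon-stimulated genes had a mean pairwise r of 0.74 over 28 genes, and their score had r = 0.85 with the macrophage score (0.53 without the 2 livers farthest out). With Lcn2, 7 of the 28 rose (limma adjusted p under 0.05), beside 4.95% of all genes, among them the antiviral genes Oas1a, Oas2 and Mx1. Of 15 immediate early genes, which answer acute stimuli, 4 rose with Lcn2 (Atf3, Klf2, Klf6 and Gadd45b), beside the same 4.95%, and the score of the list had r = 0.94 with the acute-phase score (0.82 without the 2 livers farthest out). Of 18 circadian clock genes 4 fell with Lcn2, beside 0.619% of all genes, the clock repressors Cry2 and Nr1d2 and the clock-controlled factors Dbp and Tef. All genes called with Lcn2 numbered 612, and 6 without iAMPK_HFD+doxy 1. The labels name no hour of sampling.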
